A study of Mus musculus with 16 samples.

Results

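The response of the dorsal raphe nucleus (DRN) to dexamethasone (DEX) was measured in mice with a passive coping strategy (PS). The comparison sets 3 DEX libraries against 2 saline libraries across 14504 genes, 5 of the 16 libraries of the series, chosen by their labels alone (dep1 with dex or sal in the title). They are named here by group and label number: PS_sal_62 and PS_sal_68 received saline, and PS_dex_34, PS_dex_6 and PS_dex_64 received DEX at 2 mg/kg, 6 h before the tissue was taken. All were adult male C57BL/6 mice (genotype C57BL6 in the labels, no transgene), and each PS mouse had been defeated by an aggressive male during 30 days of chronic stress. The PS class rests on behavior: defeated mice were clustered by what they did near a partner in the absence of attack, and the PS cluster was the one in which freezing prevailed. Control mice without defeat gave 3 saline and 3 DEX libraries, and defeated mice with an active coping strategy (AS) gave 3 saline and 2 DEX libraries under the same injections. These 11 libraries shared the estimate of variance with PS and serve below as a reference. DRN tissue was punched from cryosections, so each library mixes neurons, glia and vessels. The study left a PS DEX sample and 2 AS DEX samples out for low Tph2, which limits what Tph2 itself can show. The paper describes more DRN libraries than the 16 used here.

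The glucocorticoid receptor (GR, gene Nr3c1) waits in the cytoplasm with chaperones of the HSP90 family until it binds a steroid, then enters the nucleus and binds DNA. Its preferred element is a pair of inverted hexamers spaced by 3 bases, and genes near such elements include Fkbp5, Tsc22d3 and Sgk1, which are induced in many tissues within hours. The mineralocorticoid receptor (Nr3c2) recognizes much the same element. DEX is a synthetic agonist with strong preference for GR. The DRN holds most of the serotonin neurons that project to the forebrain, and its neurons and glia both carry GR.

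Bases upstream of 4 of the genes called higher are shown first, because they hold the letters of the receptor's consensus element. RefSeq windows from 250 bases before to 50 after a start site (GRCm38.p6) were matched by symbol for 10282 of the genes tested, among them 65 of the 84 genes called higher after DEX in PS and 11 of the 18 called lower. The core palindrome GNACANNNTGTNC, which reads the same on both strands, occurred in the windows of 44 of the 10282 genes (0.428%). It occurred in 4 of the 65 genes called higher (6.15%) and in 0 of the 11 called lower. Counted by window, since a gene with several start sites has more chances, it lay in 5 of 94 windows of the genes called higher (5.32%) and in 48 of all 13273 windows (0.362%). The 4 genes were Sgk1, Fam107a, Kcna5 and Map3k6. Their upstream bases are printed 5′ to 3′ on the gene's strand, with the core in capitals.
Sgk1, GRCm38.p6 chr10:21993640-21993889, plus strand: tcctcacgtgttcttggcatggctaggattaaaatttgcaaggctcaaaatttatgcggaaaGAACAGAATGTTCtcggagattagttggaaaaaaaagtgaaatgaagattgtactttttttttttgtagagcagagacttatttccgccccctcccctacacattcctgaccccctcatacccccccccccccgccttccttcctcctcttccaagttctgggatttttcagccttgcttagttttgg
Fam107a, GRCm38.p6 chr14:8309780-8310029, minus strand: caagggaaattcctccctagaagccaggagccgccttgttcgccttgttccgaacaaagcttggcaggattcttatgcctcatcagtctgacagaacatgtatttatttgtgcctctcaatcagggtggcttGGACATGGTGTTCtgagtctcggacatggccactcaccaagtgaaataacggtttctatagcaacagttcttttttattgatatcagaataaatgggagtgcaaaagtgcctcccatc
Kcna5, GRCm38.p6 chr6:126535556-126535805, minus strand: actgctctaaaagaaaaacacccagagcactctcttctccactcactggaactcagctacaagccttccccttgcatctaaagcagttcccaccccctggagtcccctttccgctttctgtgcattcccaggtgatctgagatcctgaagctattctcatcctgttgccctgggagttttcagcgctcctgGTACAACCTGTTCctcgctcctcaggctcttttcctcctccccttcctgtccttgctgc
Map3k6, GRCm38.p6 chr4:133240568-133240817, plus strand: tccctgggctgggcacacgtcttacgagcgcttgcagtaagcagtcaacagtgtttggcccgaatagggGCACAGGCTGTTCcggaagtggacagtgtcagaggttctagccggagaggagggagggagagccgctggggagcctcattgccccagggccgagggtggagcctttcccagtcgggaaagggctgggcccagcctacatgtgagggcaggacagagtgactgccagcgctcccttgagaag
In Sgk1 the core began 188 bases before 1 of its 6 annotated start sites, a stretch that lies within the longer Sgk1 transcripts. There it extended to the full palindrome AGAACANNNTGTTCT, which was found in no other gene of the 10282. In Fam107a it began 118 bases before the start (a second window of the same gene, shifted by a few bases, held the same copy), in Kcna5 59 bases and in Map3k6 181 bases before it. The single hexamer AGAACA, searched on both strands and contained in the full palindrome, was in 10 of the 65 genes called higher (15.4%) against 14.6% of all genes, a share near the background. A match is a string of letters and no measure of binding, and no match, as for Fkbp5, says only that the letters are not in these 300 bases. The levels of these 4 genes are given with their groups below.

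The 5 PS libraries held between 38207157 and 47259392 reads in the 14504 listed genes, and 100% of their values came out as whole reads (within 0.05) once divided by the library's own step. Serotonin markers were high in each: Tph2, the enzyme that makes serotonin in the brain, read 127929 and 120602 normalized counts in the saline libraries and 124443, 103851 and 106205 in the DEX libraries, and the transporter Slc6a4 stayed between 86003 and 109527. Markers of other cell types differed between libraries of the same arm. PS_sal_68 stood apart by motor neuron genes, with Chat at 2149.6 normalized counts against 94.0 to 437 in the other 4, and by dopamine genes, with Th at 741 against 2009 to 3333. PS_dex_6 had little and PS_dex_64 much of the ependymal cilia gene Foxj1, 241 and 3451 normalized counts, against 964 to 2027 in the other 3. The mean log2 deviation over 40 cilia genes was -2.27 in PS_dex_6, 1.67 in PS_dex_64 and 0.58 in PS_dex_34, and 0.56 and -0.77 in saline. The part of these differences in the results was not tested beyond the fits with marker covariates and without single libraries.

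**Figure D1:**
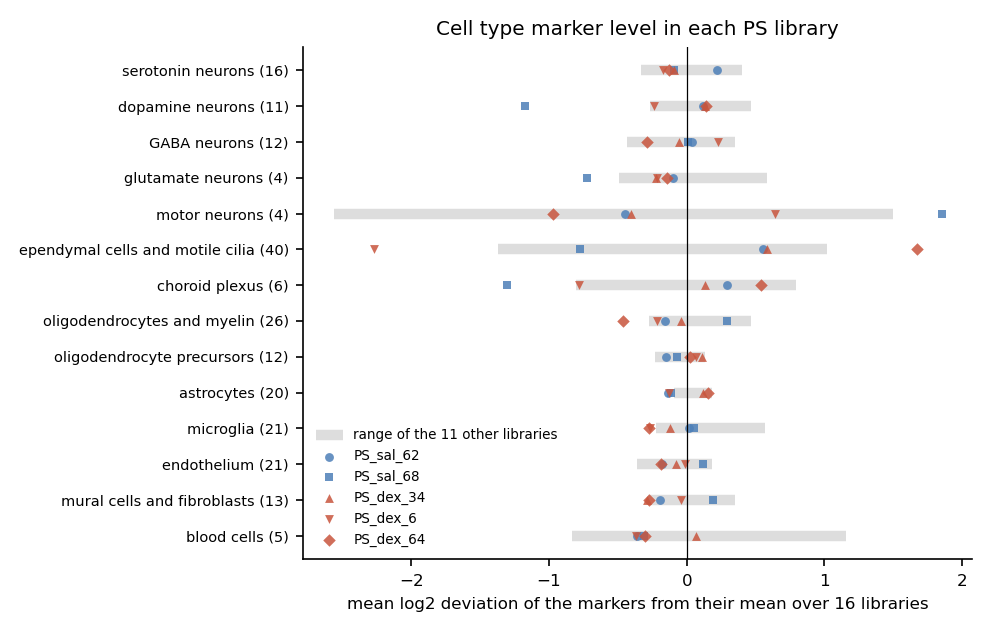
Mean log2 deviation of cell type marker lists in each PS library (blue, saline; red, DEX) from the mean over the 16 libraries, with the range of the 11 other libraries as a gray bar and the number of markers measured in brackets. Cilia scores of the DEX libraries run from -2.27 to 1.67 around the saline values, PS_sal_68 is at 1.85 for motor neuron and -1.17 for dopamine neuron markers, and the myelin scores of the 5 libraries lie between -0.47 and 0.30.

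After DEX, 84 genes were called higher and 18 lower in PS mice at an adjusted p under 0.1 (limma over all 16 libraries, Benjamini-Hochberg over 14504 genes). That is 0.703% of the genes tested, 0.579% higher and 0.124% lower. Each fold change below is a difference of mean log2(normalized count + 1), given with its standard error (SE) and adjusted p. The genes called higher had a median log2 fold change of 0.99, from 0.44 to 4.08, and 41 of them at least doubled. Those called lower had a median of -0.83, the steepest at -1.81. The arms of all 84 and 18 genes did not overlap, a state that 21.3% of all genes tested also reached. The median level of the called genes, 1162 normalized counts, was near that of all genes, 1180.2.

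**Figure D2:**
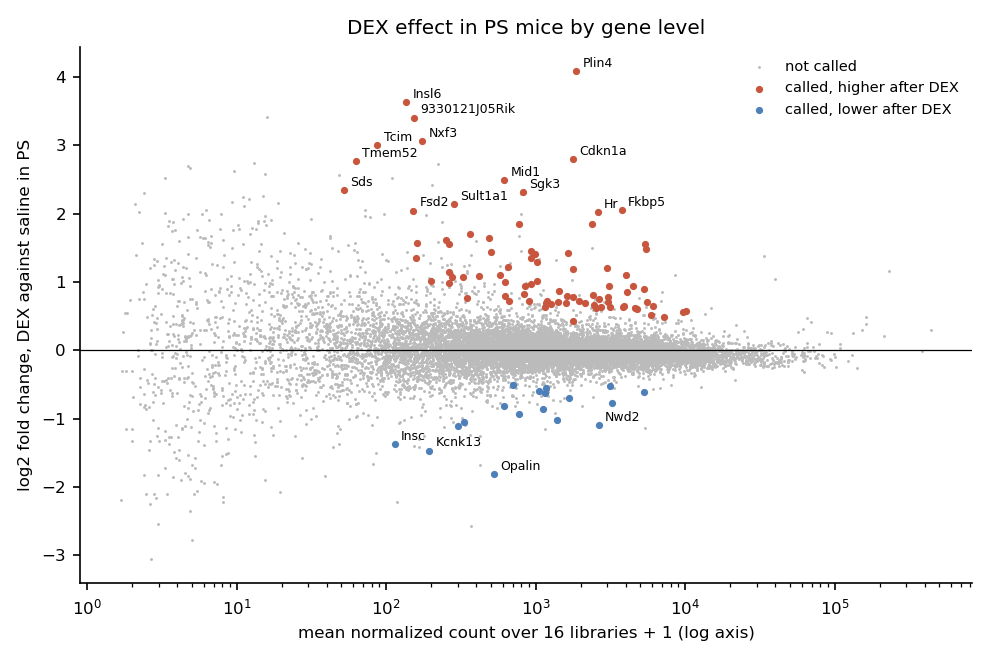
Mean normalized count plus 1 over the 16 libraries (log axis) against the log2 fold change of DEX over saline in PS for the 14504 genes; each point is a gene, red and blue mark the 84 called higher and 18 called lower. Called genes span the range of levels from about that of Sds to that of Rhob and Mat2a, and Plin4 at 4.08 and Opalin at -1.81 mark the ends.

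How far the calls rest on single libraries differed by direction. Of the 84 genes called higher, 24 were called again in each of the 16 fits that left out a library, and of the 18 called lower, 0 were. Without PS_sal_68 the count fell to 30 (28 of them among the genes above), without PS_dex_34 to 43, without PS_sal_62 to 53 and without PS_dex_64 to 58, while the fit without PS_dex_6 gave 105. A fit on the 5 PS libraries alone gave 56 genes. DESeq2 on the recovered reads gave 187, all of the genes above among them, and edgeR 83 higher and 18 lower, with 97 shared. Among the 24 are Fkbp5, Cdkn1a, Plin4, Zbtb16, Fam107a, Sgk1, Sgk3 and Hr.

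Transcripts of the receptor itself were lower and its best known co-chaperone was higher. Nr3c1 read 6672 and 6189 normalized counts after saline and 4087, 4432 and 4122 after DEX, each DEX library below both saline libraries (-0.61, SE 0.13, adjusted p 0.0596). Nr3c2 was also below in every DEX library, 1258, 1555 and 1266 against 1913 and 1782, but did not pass the test (-0.45, SE 0.15, adjusted p 0.488, 95% interval -0.77 to -0.13). Arms that did not overlap were found for 21.3% of all genes tested. Fkbp5 encodes an HSP90 partner that lowers the affinity of GR for its ligand. It stood at 1519 and 1536 after saline and at 6958, 5642 and 6517 after DEX, a 4.15-fold rise (2.05, SE 0.11, adjusted p 4.02e-07). Fkbp4, the related immunophilin with the opposite effect on GR, was at 8407 and 7801 and 7541, 7577 and 5899 and was not called (-0.22, SE 0.15, adjusted p 1). Of the 23 receptor and chaperone genes listed, Fkbp5 alone was called higher and Nr3c1 alone lower, beside 0.703% of all genes called. The median of the list was -0.05. Nr3c1 lost its call without PS_dex_34 (adjusted p 0.239), PS_dex_64 (0.211), PS_sal_62 (0.423) or PS_sal_68 (0.339).

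Genes known as glucocorticoid targets made up 19 of the 37 called genes that stood on a list. Of the 37 targets measured, 19 were called higher and 0 lower, and 35 had a positive fold change; their median was 0.69, beside 0.579% of all genes called higher and a median over all genes of -0.00436. The list was drawn up with earlier results of these libraries known, so its direction is no independent evidence. Members that missed the threshold include Hif3a, a hypoxia-inducible factor subunit (411 and 452 after saline, 1318, 1209 and 1659 after DEX; 1.68, SE 0.40, adjusted p 0.109), and Mt1 (1.11, SE 0.31, adjusted p 0.266), Glul (0.47, SE 0.13, adjusted p 0.277), Nfkbia (0.68, SE 0.19, adjusted p 0.29) and Errfi1 (0.54, SE 0.16, adjusted p 0.356). In all 5 the arms did not overlap, as was found for 21.3% of all genes tested.

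The called transcription regulators are described together, with no list or test of the group; Zbtb16, Klf9, Klf15 and Tsc22d3 are on the target list. Zbtb16, a zinc finger repressor also known as PLZF, read 1088 and 1195 normalized counts after saline and 3887, 4016 and 4441 after DEX (1.85, SE 0.20, adjusted p 0.000545). Hr, the hairless corepressor of nuclear receptors, rose from 998 and 1212 to 4604, 4112 and 4785 (2.03, SE 0.25, adjusted p 0.00155). Mxd4, which competes with MYC for its partner MAX, rose from 2140.3 and 2227 to 4211, 3647 and 4826 (0.94, SE 0.12, adjusted p 0.00165). The Krüppel-like factors moved less: Klf9 read 3560.0 and 3834 and then 5540.3, 5159.9 and 6389 (0.62, SE 0.10, adjusted p 0.0155), and Klf15 991 and 956 and then 1684, 1346 and 1721 (0.69, SE 0.13, adjusted p 0.0304). Tsc22d3, the leucine zipper protein GILZ that restrains NF-kappaB and AP-1, was at 3466 and 3973 after saline and reached 7491, 5355 and 8232 after DEX, with PS_dex_6 the lowest of the 3 (0.90, SE 0.17, adjusted p 0.0304). Maff, a small MAF factor, went from 102.2 and 81.1 to 296, 156 and 276 (1.35, SE 0.30, adjusted p 0.0731), again with PS_dex_6 the nearest to saline. It was the 1 gene called of 17 immediate early genes, beside 0.703% of all genes. Klf9 lost its call without PS_sal_62 (adjusted p 0.182) or PS_sal_68 (0.126), Klf15 without PS_dex_34 (0.159), PS_dex_64 (0.157), PS_sal_62 (0.182) or PS_sal_68 (0.366) and Tsc22d3 without PS_dex_34 (0.155), PS_dex_64 (0.153), PS_sal_62 (0.311) or PS_sal_68 (0.199). Maff was not called without con_dex_101, con_dex_116, PS_dex_34, PS_dex_64, PS_sal_62, PS_sal_68, AS_dex_38 or AS_dex_42, with an adjusted p from 0.104 to 0.841, the highest without PS_sal_68. The calls of Zbtb16, Hr and Mxd4 held in all 16 such fits.

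**Figure D3:**
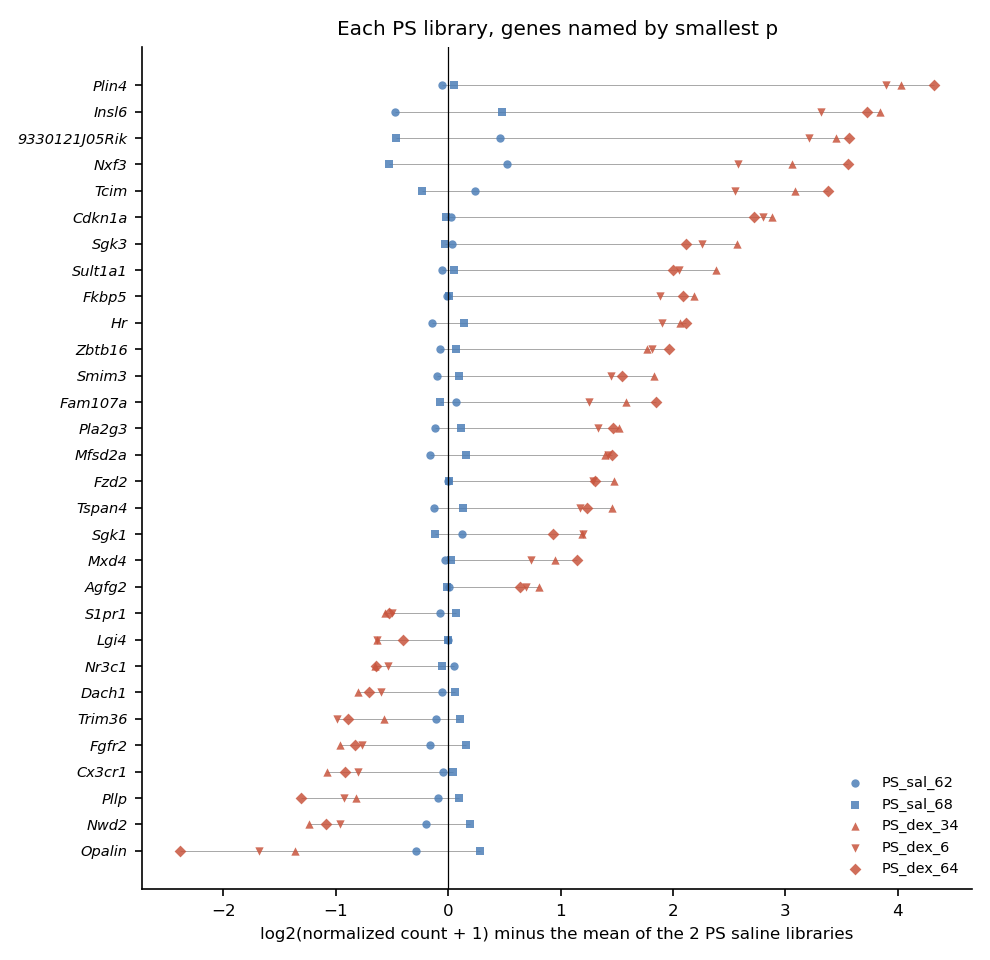
log2(normalized count + 1) of each PS library minus the mean of the 2 saline libraries, for the 20 genes called higher and 10 called lower with the smallest p; blue circles and squares are saline, red symbols DEX libraries. The DEX symbols of each gene lie on 1 side of both saline symbols, and the spread between the saline libraries is widest for genes of low level such as Insl6 and Nxf3.

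Kinases and growth brakes were also among the genes called higher. The lists held 2 called of 11 SGK genes and 2 of 31 brakes of MAPK, PI3K and mTOR signaling (Ddit4 and Tsc22d3). Of the 31 brakes 12 had a positive fold change (median -0.08), and of the 11 SGK genes 7 (median 0.11), against 48.9% of all genes. Over all genes tested 0.703% were called, and the lists were chosen with earlier results of these data known. Cdkn1a, the cell cycle inhibitor p21, went from 496 and 480.1 normalized counts to 3599, 3408 and 3213, a 6.96-fold change (2.80, SE 0.16, adjusted p 5.14e-07). Cyclin G1 (Ccng1), a p53 target, was at 1778 and 1701 and then at 4240.2, 2954 and 5210.2 (1.21, SE 0.24, adjusted p 0.0439); these were the 2 members called of 19 cell cycle genes. Sgk3 and Sgk1 are serum and glucocorticoid kinases that act beside AKT downstream of PI3K. Sgk3 rose from 284 and 272 to 1656, 1336 and 1214 (2.32, SE 0.27, adjusted p 0.000756). Sgk1, whose upstream bases carry the full palindrome printed above, rose from 2840.4 and 2406 to 5982, 5996 and 4995 (1.11, SE 0.15, adjusted p 0.00256). Ddit4 (REDD1), an inhibitor of the growth complex mTORC1, rose from 1859.8 and 1799 to 3516, 3141 and 3029 (0.82, SE 0.15, adjusted p 0.03). Map3k6, the stress kinase with the core 181 bases upstream, was at 148 and 146 after saline and varied after DEX, at 585, 281 and 493 (1.55, SE 0.35, adjusted p 0.0937). Fgf2, a fibroblast growth factor, rose from 430.4 and 449 to 853, 756 and 1046 (0.995, SE 0.20, adjusted p 0.0427). Ccng1 lost its call without PS_dex_34 (adjusted p 0.184), PS_dex_64 (0.195), PS_sal_62 (0.246) or PS_sal_68 (0.465), Ddit4 without PS_dex_34 (0.152), PS_sal_62 (0.181) or PS_sal_68 (0.339) and Fgf2 without PS_dex_34 (0.152), PS_dex_64 (0.195), PS_sal_62 (0.296) or PS_sal_68 (0.339). Map3k6 was not called without con_dex_101, con_dex_116, con_dex_122, con_sal_114, PS_dex_34, PS_dex_64, PS_sal_62, PS_sal_68, AS_dex_38, AS_dex_42, AS_sal_14 or AS_sal_8, with an adjusted p from 0.127 to 0.702, the highest without PS_sal_68.

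Lipid handling and transport genes included the largest fold change of the called genes. Plin4, a coat protein of lipid droplets, read 211 and 228 normalized counts after saline and 3594, 3283 and 4421 after DEX, 16.9-fold (4.08, SE 0.27, adjusted p 2.51e-06). Pla2g3, a secreted phospholipase A2, rose from 292 and 343 to 911, 799.7 and 878 (1.44, SE 0.16, adjusted p 0.000709), and Pnpla2, the triglyceride lipase ATGL, from 1137 and 1053 to 2560.3, 2764 and 2226 (1.195, SE 0.22, adjusted p 0.0281). These 3 were the called members of 34 lipid genes, whose median was 0.09, beside 0.703% of all genes called. The mitochondrial carrier Ucp2 missed the threshold (0.75, SE 0.18, adjusted p 0.136). Mfsd2a carries lysophospholipids with omega-3 chains across the blood-brain barrier. It went from 812 and 1015 to a narrow 2386, 2441 and 2496 (1.43, SE 0.16, adjusted p 0.000756). Slc2a1, the glucose transporter GLUT1 of the same barrier, went from 4612 and 4843 to 6868, 6506 and 6969 (0.52, SE 0.10, adjusted p 0.0405). They were the 2 called of 21 endothelial genes, of which 6 had a positive fold change (median -0.16), against 48.9% of all genes. Sult1a1, a phenol sulfotransferase, rose from 96.4 and 103.8 to 526, 418 and 403 (2.14, SE 0.27, adjusted p 0.00165). The metal-binding Mt2 rose from 3515 and 2669 to 10269, 6070.3 and 10109 (1.48, SE 0.22, adjusted p 0.00554), and the alpha-arrestin Arrdc2 from 524 and 520.1 to 1553, 1189 and 1582 (1.45, SE 0.20, adjusted p 0.00315). Pnpla2 lost its call without PS_dex_34 (adjusted p 0.125), PS_sal_62 (0.156) or PS_sal_68 (0.339), Slc2a1 without PS_dex_34 (0.166), PS_dex_64 (0.176), PS_sal_62 (0.331) or PS_sal_68 (0.305) and Mt2 without PS_sal_68 (0.168).

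Actin, adhesion and signaling genes, and some of little known function, had the other smallest p-values. Fam107a, an actin-binding protein induced by stress, was at 2873 and 2600.4 normalized counts after saline and 8211, 6516 and 9874 after DEX (1.56, SE 0.15, adjusted p 0.000122), and the core of the element lay 118 bases upstream. Rhob, a small GTPase, rose from 8185 and 7907 to 13157, 11638 and 11451 (0.58, SE 0.09, adjusted p 0.00698). Fzd2, a Wnt receptor, rose from 521 and 524 to 1457, 1277 and 1291 (1.356, SE 0.18, adjusted p 0.00254), and the tetraspanin Tspan4 from 549 and 657 to 1648, 1357 and 1414 (1.29, SE 0.16, adjusted p 0.00138). Several genes were scarce without DEX. Insl6, of the insulin and relaxin family, read 14.6 and 29.2 after saline and 311, 215 and 286 after DEX (3.63, SE 0.44, adjusted p 0.0012). Nxf3, of the nuclear RNA export factors, read 61.3 and 29.2 and 362, 258 and 509 (3.06, SE 0.34, adjusted p 0.000709), and Tcim, a small regulator first found in thyroid cancer, 24.3 and 17.3 and 181, 125 and 223 (3.003, SE 0.32, adjusted p 0.000545). All DEX libraries of these 3 lay at least 4 times above the higher saline library. Smim3 (1.61, SE 0.22, adjusted p 0.00259) and Agfg2 (0.71, SE 0.09, adjusted p 0.00165) also rose, from 111 and 128 to 426, 327 and 349.7 and from 2348 and 2324 to 4081, 3766 and 3643. The antisense RNA 9330121J05Rik (GRCm38 chromosome 3, 62337524 to 62340532, minus strand) rose from 37.98 and 19.5 to 308, 259.7 and 333 (3.41, SE 0.31, adjusted p 0.000118). It overlaps the start of Arhgef26 on the other strand (chromosome 3, 62338344 to 62462221), and whether reads were counted by strand is not stated. Arhgef26 read 1376 and 1216 after saline and 1220.3, 1049.6 and 1576 after DEX (log2 fold change -0.03, SE 0.17). Rhob lost its call without PS_sal_68 (adjusted p 0.162).

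Among receptors and channels of neurotransmission, 1 of 10 serotonin receptors, 1 of 11 histamine, adrenergic and dopamine receptors and 4 of 70 potassium channels were called, beside 0.703% of all genes. Htr1d, an inhibitory serotonin receptor, rose from 976 and 875 normalized counts to 1563, 1606 and 1429.6 (0.73, SE 0.14, adjusted p 0.0295). It was the 1 gene called of 10 serotonin receptors, and the 1 with a positive fold change, against 48.9% of all genes. The autoreceptor Htr1a was lower in each DEX library (7072 and 5449.6 against 4954, 5171 and 4804) and did not pass the test (-0.32, SE 0.12, adjusted p 0.709). Arms that did not overlap were found for 21.3% of all genes tested. Hrh1, the excitatory histamine H1 receptor, rose from 1307 and 1027 to 1925, 1779 and 1908 (0.69, SE 0.12, adjusted p 0.0232). Of 70 potassium channel genes 3 were called higher and 1 lower, with a list median of -0.06. Kcna5, a voltage-gated channel, rose from 731 and 487 to 1222, 1211 and 1070.4 (0.97, SE 0.16, adjusted p 0.0127), and its core match lay 59 bases upstream. The leak channels Kcnk1 and Kcnk2 rose from 1734 and 1949.5 to 2972, 2998 and 2766 (0.66, SE 0.11, adjusted p 0.0168) and from 1772 and 1393 to 2535, 2295 and 2788 (0.69, SE 0.14, adjusted p 0.0419). Kcnk13, a leak channel found in microglia, fell from 247 and 285 to 98.0, 106 and 83.5 (-1.47, SE 0.33, adjusted p 0.0823). Htr1d lost its call without PS_dex_34 (adjusted p 0.14), PS_sal_62 (0.119) or PS_sal_68 (0.465), Hrh1 without PS_dex_34 (0.123) or PS_sal_68 (0.524) and Kcna5 without PS_sal_68 (0.276). Kcnk1 lost its call without PS_sal_62 (0.23) and Kcnk2 without PS_dex_34 (0.159), PS_dex_64 (0.194) or PS_sal_68 (0.803). Kcnk13 was not called without con_dex_101, con_sal_104, PS_dex_34, PS_dex_6, PS_dex_64, PS_sal_62, PS_sal_68, AS_dex_38, AS_dex_42, AS_sal_14 or AS_sal_8, with an adjusted p from 0.107 to 0.803, the highest without PS_sal_68.

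Of 17 genes that make, carry or degrade serotonin, Sult1a1 alone was called, beside 0.703% of all genes. The fold change of Tph2 was -0.16 with a 95% interval of -0.68 to 0.36 and that of the degrading enzyme Maoa was -0.10 (-0.41 to 0.20). Of 16 markers of serotonin neurons 1 had a positive fold change, against 48.9% of all genes. Their median was -0.15, and 0 were called. PS_sal_62 was highest for the list, at 0.22, and the other saline library, at -0.09, lay among the DEX libraries at -0.17 to -0.09. Fev, a transcription factor of these neurons, read 6631 and 4293 after saline and 3876, 4303 and 4206 after DEX (-0.37, SE 0.30, adjusted p 1).

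The genes that fell included several known from glia. In such bulk tissue fewer cells of a type and less RNA per cell cannot be told apart. Opalin, a membrane protein of mature oligodendrocytes, read 592 and 880.2 normalized counts after saline and 279, 225 and 137 after DEX, a 3.51-fold fall (-1.81, SE 0.29, adjusted p 0.0116). Pllp (plasmolipin), a myelin proteolipid, fell from 1569.7 and 1787 to 947, 881 and 677 (-1.02, SE 0.18, adjusted p 0.0202). S1pr1, a sphingosine-1-phosphate receptor, fell from 3374 and 3727 to 2406, 2508 and 2469 (-0.53, SE 0.10, adjusted p 0.0304), and Fgfr2, a growth factor receptor present in oligodendrocytes, from 1233 and 1535 to 704, 806 and 776 (-0.85, SE 0.18, adjusted p 0.071). Lgi4, a secreted protein required for myelination of peripheral nerves, was at 1367 and 1370.0 and 884, 882 and 1039 (-0.55, SE 0.12, adjusted p 0.0647). Opalin was the 1 gene called of 26 in the myelin list, 20 of which had a negative fold change (median -0.22). Over all genes tested 0.703% were called and 48.9% had a positive fold change. Ugt8a (-0.92, SE 0.27, adjusted p 0.316) and Gjb1 (-1.08, SE 0.36, adjusted p 0.521) missed the threshold. The score of the list, a mean of log2 deviations in which each gene weighs the same, differed within the arms. It was -0.15 and 0.30 in saline and -0.04, -0.22 and -0.47 in DEX. With that score as a covariate 44 genes were called, 41 higher and 3 lower, the latter being Opalin (adjusted p 0.0247), Pllp (0.0247) and Nwd2 (0.0251). Opalin is itself 1 of the 26 genes in the score, so its value there is not independent of the covariate. All genes called in PS kept their direction in that fit, and the 60 that lost the call had a median effect of 0.71 on the log2 scale with the covariate and 0.77 without it, with a median SE of 0.17 and 0.16. For the 18 called lower the median size was 0.68 with the covariate and 0.83 without it, with a median SE of 0.17 in both. For the 84 called higher it was 0.93 and 0.99. The cause of these shifts was not tested.

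Cx3cr1, the fractalkine receptor by which neurons address microglia, fell from 941 and 1000.2 normalized counts to 458, 556 and 515 (-0.93, SE 0.17, adjusted p 0.0232). It was the 1 gene called of 21 microglia markers, 17 of which had a negative fold change (median -0.19). Over all genes tested 0.703% were called and 48.9% had a positive fold change. P2ry12 read 409 and 427 and 287, 311 and 306 (-0.47, SE 0.24, adjusted p 1). Single genes of other glial lists were called higher. Gjb6, the astrocyte gap junction protein connexin 30, rose from 1756 and 2047 to 3434, 2821 and 3380.1 (0.75, SE 0.15, adjusted p 0.0358), 1 called of 20 astrocyte genes (median 0.15). Neu4, a sialidase, rose from 437 and 440.1 to 761, 680.2 and 845 (0.79, SE 0.15, adjusted p 0.0361), 1 called of 12 genes of oligodendrocyte precursors (median 0.12). Mertk, on no glial list, is a receptor tyrosine kinase by which phagocytes take up dying cells. It rose from 580.4 and 655 to 1664, 1468 and 1812 (1.41, SE 0.22, adjusted p 0.00721). Mertk is on the glucocorticoid target list and was the 1 called of 5 genes of its receptor family and their ligands (median 0.04). Its relative Tyro3 read 2867 and 3077 and 1949.6, 2441 and 2076 (-0.47, SE 0.12, adjusted p 0.168). Opalin lost its call without PS_sal_68 (adjusted p 0.276), Pllp without PS_sal_68 (0.33) and S1pr1 without PS_dex_34 (0.147), PS_dex_64 (0.103), PS_sal_62 (0.113) or PS_sal_68 (0.54). Cx3cr1 lost its call without PS_dex_34 (0.129), PS_sal_62 (0.147) or PS_sal_68 (0.33), Gjb6 without PS_dex_34 (0.169), PS_dex_64 (0.168), PS_sal_62 (0.372) or PS_sal_68 (0.168) and Neu4 without PS_dex_34 (0.152), PS_dex_64 (0.176), PS_sal_62 (0.247) or PS_sal_68 (0.339). Mertk lost its call without PS_sal_62 (0.113). Fgfr2 was not called without PS_dex_34, PS_dex_6, PS_dex_64, PS_sal_62, PS_sal_68, AS_dex_38 or AS_dex_42, with an adjusted p from 0.108 to 0.927, the highest without PS_sal_68. Lgi4 was not called without con_dex_101, con_dex_122, PS_dex_34, PS_dex_6, PS_sal_62, PS_sal_68 or AS_sal_14, with an adjusted p from 0.101 to 0.549, the highest without PS_sal_68.

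Nwd2, a NACHT and WD repeat protein on no glial list, had the smallest p of all genes that fell, from 3457 and 4556 normalized counts to 1677, 2043 and 1866 (-1.10, SE 0.15, adjusted p 0.00326). Its saline libraries were well apart, yet both lay far above the DEX range. Dach1, a transcriptional corepressor, fell from 2067 and 2241 to 1232, 1422 and 1325 (-0.70, SE 0.13, adjusted p 0.0232), and Trim36, a ubiquitin ligase, from 690.4 and 804 to 503, 375 and 402 (-0.82, SE 0.17, adjusted p 0.0474). Cyb561d1, of the cytochrome b561 family, fell from 805 and 831 to 597, 576 and 559 (-0.50, SE 0.11, adjusted p 0.0786), with a narrow spread in both arms. Nwd2 lost its call without PS_sal_68 (adjusted p 0.126), Dach1 without PS_dex_34 (0.125), PS_sal_62 (0.117) or PS_sal_68 (0.339) and Trim36 without PS_dex_6 (0.146), PS_dex_64 (0.188), PS_sal_62 (0.156) or PS_sal_68 (0.707). Cyb561d1 was not called without con_dex_101, con_dex_116, con_dex_122, con_sal_102, PS_dex_34, PS_dex_6, PS_dex_64, PS_sal_62, PS_sal_68, AS_dex_38, AS_dex_42, AS_sal_14 or AS_sal_8, with an adjusted p from 0.104 to 0.761, the highest without PS_sal_68. Itgb8, an integrin subunit, read 3203 and 3464 and 4910.2, 4294 and 6540.5 (0.63, SE 0.18, adjusted p 0.293), and the noncoding RNA 2900052N01Rik 1386 and 1481 and 2421, 2011 and 2041 (0.59, SE 0.15, adjusted p 0.151). Neither passed. The arms of both did not overlap, as was found for 21.3% of all genes tested.

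Of the next called genes, Azin1 is on the glucocorticoid target list. The others are on no list, were picked out after their values were seen, and do not stand for a group. Azin1, which restrains the breakdown of ornithine decarboxylase and so favors polyamine synthesis, rose from 5632 and 6187 normalized counts to 8523, 7983 and 8483 (0.50, SE 0.10, adjusted p 0.0636). Smox, which oxidizes the polyamine spermine, rose from 2058 and 2096 to 3028, 3020.5 and 3536 (0.62, SE 0.11, adjusted p 0.0212). Gpt2, an alanine transaminase, rose from 2202 and 2169 to 3213, 3173 and 3876 (0.64, SE 0.12, adjusted p 0.0232), and Etnppl, an astrocyte enzyme that breaks down phosphoethanolamine, from 3004 and 3090.3 to 4702, 4208 and 5463 (0.64, SE 0.11, adjusted p 0.0212). Dio2 makes active thyroid hormone in glia. It went from 241 and 495 to 1364, 1199.5 and 1169.7, the saline libraries being further apart than the DEX libraries (1.84, SE 0.33, adjusted p 0.0238). Pfkfb3, an activator of glycolysis, rose from 4466 and 4295 to 6663, 7247 and 7611 (0.71, SE 0.15, adjusted p 0.0688). F3, the tissue factor that starts coagulation, rose from 1279 and 1410.0 to 2344, 2126 and 2439 (0.78, SE 0.11, adjusted p 0.00264), Fbln5, an elastic fiber protein, from 148 and 162 to 353, 284 and 412 (1.15, SE 0.19, adjusted p 0.013), and Htra1, a secreted protease, from 2522 and 3394 to 6124, 5788 and 5049 (0.95, SE 0.17, adjusted p 0.021). F3, the small GTPase Rab31 (2072 and 2316 to 4058, 3566 and 3679; 0.78, SE 0.11, adjusted p 0.00264) and the fatty acid elongation enzyme Hacd2 (831 and 1123 to 1765, 1660.2 and 1905; 0.88, SE 0.13, adjusted p 0.0038) were called without each of the 16 libraries. Smox lost its call without PS_sal_62 (adjusted p 0.177) or PS_sal_68 (0.234), Gpt2 without PS_sal_62 (0.162) or PS_sal_68 (0.297) and Etnppl without PS_sal_62 (0.182) or PS_sal_68 (0.221). Dio2 lost its call without PS_dex_34 (0.125) or PS_sal_62 (0.325), Fbln5 without PS_sal_62 (0.147) or PS_sal_68 (0.126) and Htra1 without PS_dex_34 (0.119) or PS_sal_62 (0.283). Azin1 was not called without con_dex_101, PS_dex_34, PS_dex_64, PS_sal_62 or PS_sal_68, with an adjusted p from 0.106 to 0.495, the highest without PS_sal_62. Pfkfb3 was not called without con_dex_101, PS_dex_34, PS_dex_6, PS_dex_64, PS_sal_62, PS_sal_68, AS_dex_38 or AS_dex_42, with an adjusted p from 0.106 to 0.637, the highest without PS_sal_68.

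The rest of the genes that fell had an adjusted p near the threshold and were also picked out by their values. Car2, the carbonic anhydrase of oligodendrocytes, read 3239 and 4225 normalized counts after saline and 2529, 1979.6 and 2011 after DEX (-0.78, SE 0.17, adjusted p 0.0882), and Nkx6-2, a homeobox factor of the same lineage, 1154 and 1118 and 695, 714 and 808 (-0.62, SE 0.14, adjusted p 0.0935). Wnt7a, a Wnt ligand, fell from 367 and 338 to 142, 226 and 152 (-1.05, SE 0.23, adjusted p 0.0735), the direction opposite to that of the Wnt receptor Fzd2. Tnfrsf11b, the decoy receptor osteoprotegerin, fell from 426 and 439 to 204, 219 and 182 (-1.10, SE 0.24, adjusted p 0.0731). Insc, an adaptor for the orientation of cell division, fell from 115.9 and 162 to 70.1, 64.1 and 31.7 (-1.37, SE 0.32, adjusted p 0.0974), and BC030500 from 1245 and 1166 to 839, 774 and 792 (-0.59, SE 0.13, adjusted p 0.0938). Between 9 and 15 of the 16 fits that left out a library lost the call of each of these 6; without PS_sal_68 the adjusted p was 1, 0.602, 0.483, 0.637, 1 and 0.525 in the order given.

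Of 49 lists, 28 had 0 members called, pathway and cell type marker lists among them. With 0.703% of all genes called, 0 is near the background for a list of such size, and nothing is read from it. Over all lists, which hold 1079 measured genes, 37 members were called, a count that fell to 14 without PS_sal_68, 18 without PS_dex_34, 21 without PS_sal_62 and 23 without PS_dex_64. Among 24 circadian clock genes 0 were called and the median was 0.02; Bhlhe40 (-0.41, SE 0.12, adjusted p 0.296) and Dbp (-0.49, SE 0.17, adjusted p 0.602) came nearest. Among 32 inflammatory and interferon genes 0 were called (median -0.10), and among 27 cholesterol genes likewise 0 (median -0.08), with the exporter Abca1 nearest (0.82, SE 0.23, adjusted p 0.284). Neuronal lists differed in the sign of their median. Of 38 synaptic vesicle genes 32 had a negative fold change (median -0.13), and of 25 axon cytoskeleton genes 22 (median -0.15), against 51.1% of all genes, with 0 members called in either list. The medians were 0.01 for 19 GABA and glycine receptor subunits and 0.09 for 33 neuropeptides and stress peptide receptors, also with 0 called. The score of the vesicle list overlapped between arms, at 0.06 and 0.19 in saline and at -0.02, 0.15 and -0.14 in DEX. Of 80 ribosomal protein genes 0 were called and the median was 0.06. The 13 genes of the mitochondrial genome had a median of 0.37 with 0 called, and mitochondrial reads took 2.41% and 3.15% of the saline and 3.57%, 2.85% and 3.82% of the DEX libraries. Of 40 cilia genes 0 were called, the fold changes running from -0.69 to 1.89, and Tekt4 came nearest (1.89, SE 0.51, adjusted p 0.228). Neuropeptides such as Npy (121.7 and 21.6 and 296, 194 and 255; 2.22, SE 0.79, adjusted p 0.623) and Vip (2899.8 and 203 and 5968, 1368 and 5657; 2.22, SE 0.99, adjusted p 1) were low in PS_sal_68, the library also low in Th.

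**Figure D4:**
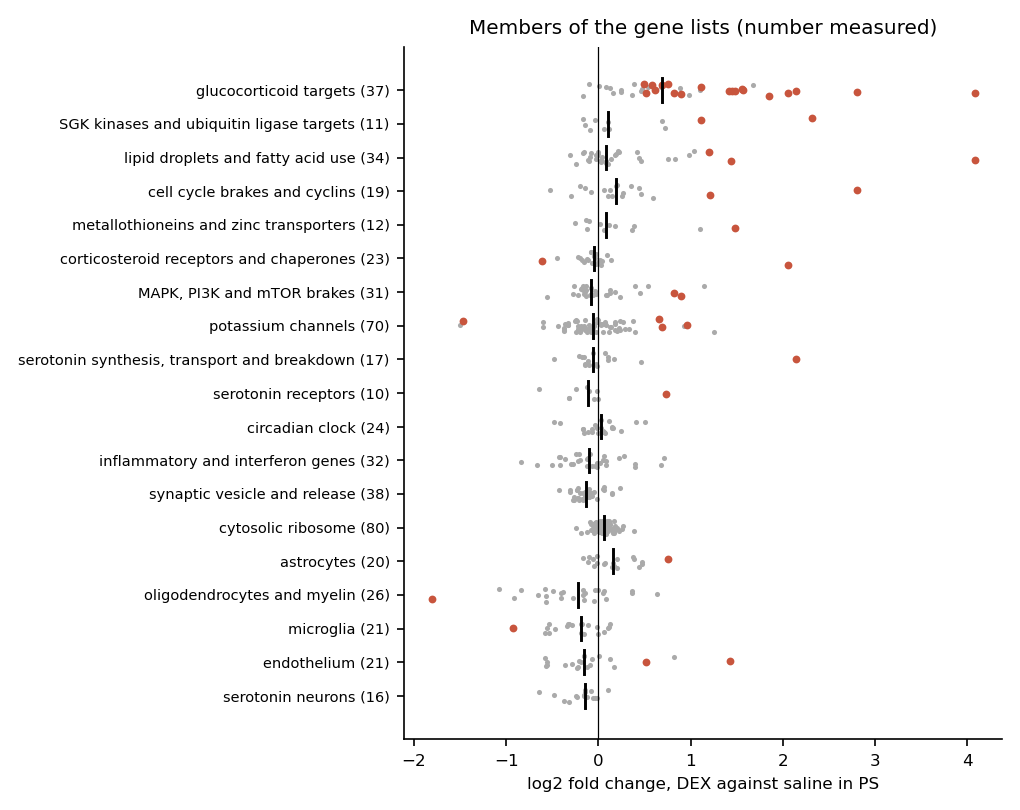
log2 fold changes of DEX over saline in PS for the measured members of 19 of the 49 gene lists (number in brackets); red points are called genes, gray points are not, and the black bar is the list median. Red points lie to the right in the glucocorticoid target list, 19 of 37, while the others hold 0 to 4 called genes each beside medians between -0.22 and 0.19.

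To learn whether the PS response differed from that of other mice, the same contrast was set beside control and AS mice in the same fit. DEX was called for 183 genes in controls (1.26% of those tested) and for 100 in AS (0.689%). Of the genes called in PS, 77 were called in controls (75.5% of the PS list and 42.1% of the control list) and 65 in AS (63.7% and 65.0%), in each case in the same direction, and 57 were called in all 3. Leaving out a library moved these counts: the genes shared with controls were 29 without PS_sal_68, 37 without PS_sal_62 or PS_dex_34, 51 without PS_dex_64, 47 without con_dex_101 and 50 without con_dex_122, and those shared with AS were 25 without PS_sal_68, 32 without PS_sal_62 or AS_dex_38, 38 without PS_dex_34 and 11 without AS_dex_42. The sign was that of PS for every called gene in controls and for all but 1 (Cyb561d1) in AS, beside 59.3% and 51.1% of all genes. The median size of the effect over the called genes was 0.96 in PS, 0.81 in controls and 0.80 in AS on the log2 scale; since the genes were chosen by their PS values, the larger PS figure is what the choice favors. The fit drew on 2 libraries in the smaller arm in PS and AS and 3 in controls, with a median SE over all genes of 0.185 in PS and 0.166 in controls.

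**Figure D5:**
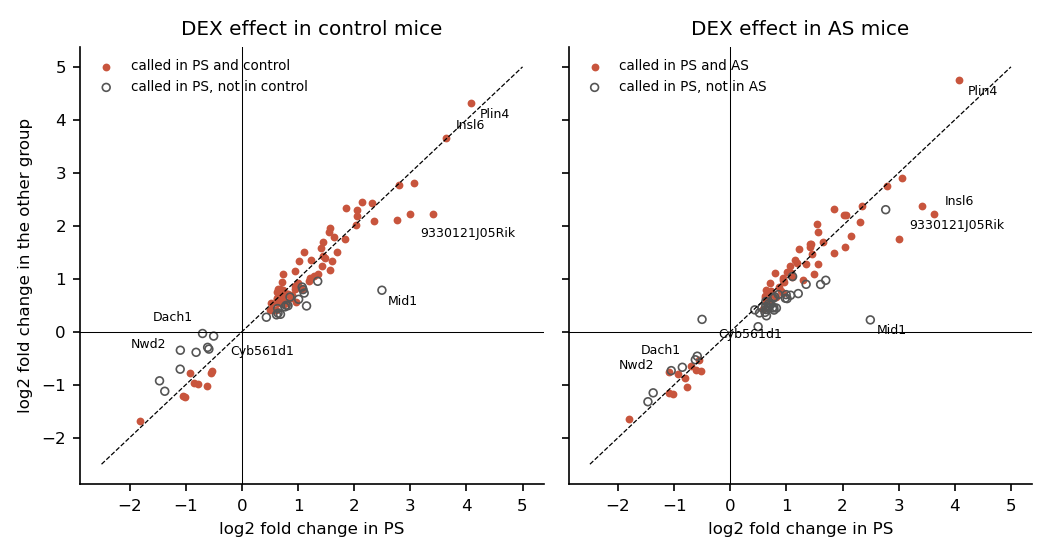
log2 fold change after DEX in PS (x) against that in control mice (left, y) and AS mice (right, y) for the genes called in PS; filled red points were called in both groups, open ones in PS only, and the dashed line marks equal change. All points on the left and all but 1 on the right share the sign of PS, and Mid1 lies far below the line in both panels, at 0.78 in controls and 0.22 in AS against 2.49 in PS.

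The difference between the effects was then tested itself. For PS minus control 0 genes were called of 14504 (0%), and for PS minus AS also 0 (0%). At an unadjusted p under 0.05 there were 304 and 421 genes. Both counts are below the share of 0.05 that is expected where no effect differs. DESeq2 gave 0 and 1 (Cyb561d1), and edgeR 0 and 0. Without PS_sal_62, 1 gene was called for PS minus control, the potassium channel modifier Kcns1, singled out by that call. Intervals were wide enough to leave room for moderate differences. For Fkbp5 the log2 difference was -0.14 (95% interval -0.45 to 0.18, p 0.36, adjusted p 1) from controls and -0.15 (95% interval -0.48 to 0.18, p 0.348, adjusted p 0.869) from AS. For Zbtb16 it was -0.49 (95% interval -1.06 to 0.09, p 0.0905, adjusted p 1) and -0.47 (95% interval -1.08 to 0.13, p 0.116, adjusted p 0.869). For Nr3c1, which was called in AS (log2 fold change -0.72) and not in controls (-0.29), it was -0.32 (95% interval -0.68 to 0.05, p 0.0877, adjusted p 1) and 0.11 (95% interval -0.28 to 0.50, p 0.544, adjusted p 0.906).

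Among the genes with the smallest p for PS minus control were Galntl6, -0.55 (95% interval -0.82 to -0.28, p 0.000689, adjusted p 1), and Gnrh1, 3.11 (95% interval 1.45 to 4.77, p 0.00128, adjusted p 1). Galntl6 read 1703 and 1782 normalized counts after saline and 1583, 1457 and 1699 after DEX in PS, where it was not called, while its fold change in controls was 0.40. Gnrh1, the gonadotropin-releasing hormone, was scarce, at 3.89 and 6.49 and 19.4, 27.2 and 33.8. For PS minus AS the smallest p belonged to Gm11583, 3.40 (95% interval 2.00 to 4.80, p 0.000139, adjusted p 0.869), Rpl9-ps6, 2.50 (95% interval 1.38 to 3.63, p 0.000308, adjusted p 0.869), and Cyb561d1, -0.74 (95% interval -1.07 to -0.40, p 0.000363, adjusted p 0.869). Gm11583 was scarce in PS, at 23.4 and 12.98 after saline and 29.0, 45.6 and 34.9 after DEX. Rpl9-ps6, a ribosomal pseudogene whose reads can be shared with its parent and is uncertain for that reason, read 31.2 and 26.0 and 91.9, 55.4 and 46.5. With library weights in the fit these 3 genes and 2900052N01Rik were called for PS minus AS, each at an adjusted p of 0.0587. The values of Cyb561d1 in all groups are given in the closing observations.

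Of the genes called in PS, 17 were called in PS and in neither other group (13 higher, 4 lower), which does not show a difference without the test above. Mid1, a ubiquitin ligase of microtubules, had the largest fold change of these and was picked out after its values were seen. It read 136 and 174 after saline and 1143, 531 and 1096 after DEX in PS (2.49, SE 0.49, adjusted p 0.0407), while the control saline libraries read 567, 188 and 372 and the AS saline libraries 739, 502 and 835. The PS saline libraries were thus the 2 lowest of the 16, and the DEX libraries lay within the range of the others, up to 1161. The log2 difference of its effect was 1.71 (95% interval 0.29 to 3.13, p 0.0217, adjusted p 1) from controls and 2.27 (95% interval 0.77 to 3.77, p 0.00581, adjusted p 0.869) from AS. A pseudogene copy, Mid1-ps1 on chromosome Y, can share its reads and read 36.0 and 15.1 after saline and 140.3, 32.6 and 184.9 after DEX in PS, so both values are uncertain. Mid1 lost its call without PS_dex_34 (adjusted p 0.192), PS_dex_64 (0.188), PS_sal_62 (0.323) or PS_sal_68 (0.297).

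Saline levels set side by side show where the PS baseline lay for a few genes of the comparison. They are given as values only, since the fold changes in PS use the same saline libraries. These genes follow no rule and do not stand for the called genes. The PS saline mean was the highest of the groups for each of them, whereas for Mid1 above the PS saline libraries were the lowest. Zbtb16 stood at 1141 ± 75.8 (SD, n = 2) after saline in PS, 757 ± 209 (SD, n = 3) in controls and 739.6 ± 101.7 (SD, n = 3) in AS. Fkbp5 stood at 1528 ± 12.3, 1297 ± 57.7 and 1326 ± 74.0 in the same order, and Plin4 at 219.7 ± 11.9, 164 ± 53.7 and 139.6 ± 24.5. Nwd2 stood at 4007 ± 778, 2736 ± 115 and 3301 ± 251, and Dach1 at 2154 ± 123, 1651 ± 149 and 2048 ± 167. Dach1 after DEX read 1327 ± 94.9 (SD, n = 3) in PS, and its fold change was -0.03 in controls and -0.65 in AS. The difference of its DEX effect in PS from that in controls or AS was not called, as for every gene tested.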

How the data were processed

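RNA from DRN punches of individual mice was sequenced as polyA libraries. The authors trimmed reads (fastp 0.20.1), aligned them to mm10 (HISAT2 2.2.1), counted them over GENCODE vM22 genes (featureCounts, Subread 2.0) and deposited normalized counts, a signal unit made by dividing each library by its DESeq2 (1.36.0) size factor. No log2 fold changes, p-values or adjusted p-values of the authors' own comparisons were used. All 14504 listed genes entered the fit, 973 of them with fewer than 10 reads in a library. The replicates are separate mice. Depth was 38207157 to 62447298 reads per library; no interval is given for counting error.

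Log2(normalized count + 1) was fitted with limma 3.58.1 (R 4.3.3): 6 group means over 16 libraries, eBayes with trend (prior degrees of freedom 3.88, residual 10), Benjamini-Hochberg over 14504 genes, called at an adjusted p under 0.1. The design names DEX minus saline in PS and its difference from controls and AS. All adjusted p-values in the text are from this fit unless another is named. In simulated counts for the PS comparison, run on 14504 genes, 95 of 100 genes changed by a log2 fold of 1 and 100 of 100 changed by 2 were called, with 27 false calls. The changed genes were drawn from those with a mean above 100. The spread of each gene was fixed by its level, and no tissue differences between punches were simulated. These shares therefore do not give the power of the real comparison. Whole reads were recovered for 100% of values (tolerance 0.05), and on them DESeq2 1.42.0 called 187 genes, and edgeR 4.0.16 called 83 higher and 18 lower. Other alternatives were pseudocounts of 0.1 and 10, filters (a mean of 100, 10 reads in every library), TMM and quantile scaling, PS libraries alone, robust eBayes, library weights, marker covariates, removal of the transcript length trend and leaving out each library.

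Genes were named by rule: the 20 called higher and 10 called lower with the smallest p and arms that did not overlap, each called member of a list, up to 4 members of a list with the smallest p, the 3 smallest p of each difference, and Tph2, Maoa, Cyb561d1, Htr1d, Hrh1, Itgb8, 2900052N01Rik, Nr3c1 and Nr3c2. Not every gene the rule names is reported here. Marker scores are mean log2 deviations from the mean of the 16 libraries. Members and lists were chosen with earlier results of these data known. Gene coordinates are from GENCODE vM21 (GRCm38), promoter windows from RefSeq (GRCm38.p6). Python 3.11.15, pandas 2.3.3 and matplotlib 3.10.9 made summaries and figures.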

Additional observations from a re-analysis of the deposited data

Results flagged for a closer look

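Cyb561d1 stood out because the DEX effect in PS differed from that in AS in an unadjusted test of the difference, by -0.74 on the log2 scale (95% interval -1.07 to -0.40, p 0.000363), a result that failed the correction over 14504 genes (adjusted p 0.869). In PS it read 805 and 831 normalized counts after saline and 597, 576 and 559 after DEX, lower in 3 of 3 DEX libraries. In AS it read 642 ± 30.3 (SD, n = 3) after saline and 755 ± 15.1 (SD, n = 2) after DEX, and in controls 749.6 ± 58.4 (SD, n = 3) and 707 ± 28.0 (SD, n = 3). DESeq2 on recovered reads called this difference (-0.74, adjusted p 0.0528), as did the fit with library weights (-0.72, adjusted p 0.0587), and edgeR did not. The paper, which also used DESeq2, names Cyb561d1 as its only DRN gene with a stress by DEX interaction. The DESeq2 call here is therefore no independent evidence.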

How the results depend on the processing

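The share of the 14504 genes called in PS, 0.703% (84 higher, 18 lower), became 1.29% with DESeq2 (147 higher, 40 lower), 0.386% with the PS libraries alone (56 genes), 3.65% with library weights (349 higher, 180 lower) and 0.303% with the myelin score as covariate (44 genes), and leaving out 1 library gave 0.207% (without PS_sal_68, 30 genes) to 0.841% (without AS_sal_40). Library weights moved the share of higher calls from 82.4% to 66.0%, and the myelin covariate to 93.2%. In the other 11 alternatives apart from single libraries the count stayed between 98 and 132. Called list members, 37, became 24 with the PS libraries alone, 91 with library weights and 19 with the myelin covariate, and 14 to 41 without 1 library. Of the PS genes, 77 were called in controls and 65 in AS; these became 142 and 125 with DESeq2, 133 and 272 with library weights, 41 and 30 with the myelin covariate, and 29 to 99 and 11 to 70 without 1 library. The difference PS minus AS gave 1 gene with DESeq2 (Cyb561d1) and 4 with library weights (Gm11583, Rpl9-ps6, Cyb561d1 and 2900052N01Rik) against 0, and PS minus control 0 to 1 without 1 library. A fit on the PS libraries alone cannot give the differences or the calls in other groups. The cause of these shifts was not tested. The 54 called genes named by rule gave 1673 values over 31 alternatives, of which 183 lost the call and 0 changed direction. No paired analysis was possible because no replicate number is shared between groups.

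With 2 saline libraries in PS, leaving out either leaves a lone library that is assumed to vary like the other groups, and these fits had 2 of the 3 lowest counts among the 16. Depth was at least 38207157 reads in each library and limits mainly the scarce genes, such as Gnrh1 and Insl6. Punches can differ in their share of neighboring tissue, which was not measured. Whether reads were counted by strand is not given in the sources used here.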
